A study of Mus musculus with 6 samples.

Results

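Levels of 10 genes of resident macrophages were read in the distal colon of mice without TNFR2, a receptor for tumor necrosis factor encoded by Tnfrsf1b, and of wildtype mice. The genes were taken by name from the deposited table: Csf1r, Emr1, Cd68, Lyz2, C1qa, C1qb, C1qc, Mrc1, Cd163 and Itgam. Each of the 10 symbols filled 1 row, out of 23108 rows with a gene name. Messenger RNA was sequenced from whole distal colon of 6 male mice aged 8 weeks, 3 wildtype (strain C57Bl/6) and 3 TNFR2-knockout (labelled with the same strain), with 1 library per mouse. Which part of Tnfrsf1b was deleted, and whether the mice were littermates, is not stated by the labels. Values are in FPKM, fragments scaled to transcript length and library size, so levels of different genes can be compared per length.

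Macrophages of the gut wall take up dying cells and bacteria and are replaced in large part by monocytes from the blood. Their survival depends on CSF1R, the receptor for the growth factors CSF1 and IL-34. They carry the surface proteins F4/80 (from Emr1, named Adgre1 in the RefSeq annotation) and CD11b (from Itgam), store lysozyme and the lysosomal glycoprotein CD68, secrete the complement protein C1q, and clear ligands through the scavenger receptors CD206 (from Mrc1) and CD163. None of these genes is fully private to macrophages: neutrophils and monocytes also use Lyz2 and Itgam, and endothelial cells of lymph vessels also use Mrc1.

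Tnfrsf1b, the targeted gene, measured 7.49 to 8.20 FPKM in the wildtype and 0.924 to 1.17 FPKM in the knockout libraries, as the labels imply. Stated depth averaged 50M paired reads of 50 bp per sample, and relative depth judged from the steps of low values ranged from 0.736 (wildtype library 3) to 1.1 (knockout library 3) with wildtype library 1 taken as 1. Genes of tissue bordering the colon were unequal between libraries. Summed over 19 rows, skin genes measured 989 to 2079 FPKM in wildtype colon against 375 to 1823 FPKM in knockout colon, and 9 skeletal muscle rows 2573 to 8356 and 148 to 1960 FPKM. Epithelial genes summed to 3080 to 4424 FPKM in wildtype colon against 3123 to 4118 FPKM in knockout colon.

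All 10 macrophage genes were detected in every library and all passed the minimum for testing, a mean of 0.5 FPKM. All 10 had lower means in the knockout colon, between 66.5% (Lyz2) and 76.6% (C1qc) of the wildtype mean, and none was called at an adjusted p under 0.05. The test was limma on log2(FPKM + 1) over all 14564 genes, with Benjamini-Hochberg adjustment. Of all tested genes it called 0.288%, and 0.103% as lower (27 higher and 15 lower in number). Without adjustment, 9 of the 10 genes had a p under 0.05 and were lower, against 9.91% of all tested genes. For the same number, 9 of 10, every knockout value lay below every wildtype value, against 12.5% of all tested genes. The median log2 change was -0.42 for the 10 genes and -0.03 for all tested genes. A lower mean on the log2 scale was found for 8353 of the 14564 tested genes, to be set beside each count of lower means below.

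**Figure D1:**
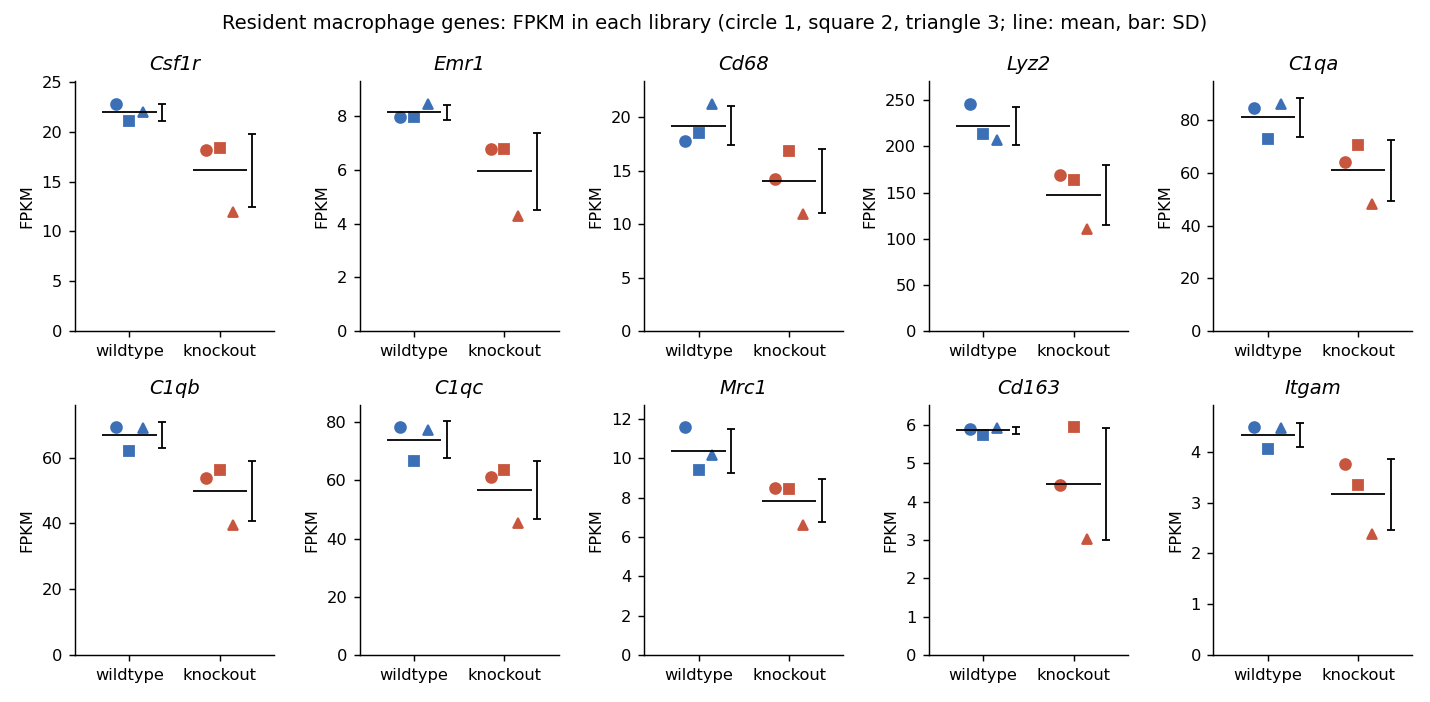
FPKM of the 10 genes in each library, wildtype in blue and knockout in red; circles, squares and triangles are libraries 1, 2 and 3, lines the mean and bars the SD (n = 3 each). The triangle of knockout library 3 is the lowest point in all 10 panels, and Cd163 is the one gene whose groups overlap.

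Csf1r, the receptor tyrosine kinase on which macrophage survival depends (chromosome 18, 61105572 to 61131139 in build mm10), measured 22.8, 21.0 and 22.0 FPKM in wildtype colon against 18.2, 18.3 and 11.9 FPKM in knockout colon. The wildtype libraries lay close together, while knockout library 3 stood well under the other two, and the groups did not overlap. The means were 21.9 ± 0.885 and 16.2 ± 3.67 FPKM (SD, n = 3 each). The log2 change was -0.44 ± 0.16 (SE; limma, Benjamini-Hochberg adjusted p = 0.274, unadjusted p = 0.0267), with a 95% interval from -0.82 to -0.07. In whole tissue, the number of macrophages or other cells, RNA per cell and the tissue content of a library cannot be told apart. This holds here and for any gene below.

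Emr1, which encodes the adhesion receptor F4/80, the classic surface marker of mouse macrophages (chromosome 17, 57358686 to 57483529), measured 7.97, 7.96 and 8.45 FPKM in wildtype colon against 6.76, 6.77 and 4.27 FPKM in knockout colon. Knockout libraries 1 and 2 were nearly equal and the third was again lowest. Its log2 change was -0.42 ± 0.15 (SE; limma, Benjamini-Hochberg adjusted p = 0.279). Itgam, the alpha chain of the integrin CD11b/CD18 that binds complement fragments (chromosome 7, 128062640 to 128118491), was the least abundant of the 10. It measured 4.48, 4.06 and 4.46 FPKM in wildtype colon against 3.76, 3.34 and 2.38 FPKM in knockout colon, without overlap. Its log2 change was -0.37 ± 0.13 (SE; limma, Benjamini-Hochberg adjusted p = 0.274).

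The relatives of these surface genes were read beside them. Itgb2, the CD18 chain that pairs with CD11b, measured 6.06, 6.11 and 5.54 FPKM in wildtype colon against 4.4, 4.80 and 3.27 FPKM in knockout colon. Both chains of the integrin thus had non-overlapping, lower values in the knockout, and neither was called (limma, Benjamini-Hochberg adjusted p = 0.227 for Itgb2). Itgax, which encodes the integrin alpha chain CD11c, was lower in level. It measured 1.78 ± 0.187 FPKM in wildtype colon against 1.44 ± 0.209 FPKM in knockout colon (SD, n = 3 each). Itgad and Emr4, relatives of Itgam and Emr1, lay between 0.00495 and 0.0413 FPKM and between 0.0642 and 0.106 FPKM over the 6 libraries and were not tested.

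Cd68, a heavily glycosylated protein of the lysosome membrane (chromosome 11, 69664134 to 69666177), measured 17.8, 18.5 and 21.2 FPKM in wildtype colon against 14.2, 16.9 and 11 FPKM in knockout colon. The gap between the highest knockout and the lowest wildtype library was small, and the groups did not overlap. The log2 change was -0.44 ± 0.15 (SE; limma, Benjamini-Hochberg adjusted p = 0.269). Another 4 lysosome genes, which many cell types use, also had lower means and were not called. Ctsd, a protease, measured 209 ± 16.3 FPKM in wildtype colon against 177 ± 5.20 FPKM in knockout colon (SD, n = 3 each), without overlap. The log2 changes were -0.24 for Ctsd, -0.13 for Lamp2, -0.12 for Ctsb and -0.04 for Lamp1, and their differences from Cd68 were not tested. Ctss, a lysosome protease read in another list, did not have a lower mean. It measured 280 ± 33.1 FPKM in wildtype colon against 285 ± 21.3 FPKM in knockout colon (SD, n = 3 each).

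Lyz2, the lysozyme of myeloid cells (chromosome 10, 117277541 to 117282272), was the most abundant of the 10 and had the lowest log2 change. It measured 246, 213 and 207 FPKM in wildtype colon against 169, 163 and 110.3 FPKM in knockout colon. Every knockout library was well below every wildtype library. The change was -0.61 ± 0.17 on the log2 scale (SE; limma, Benjamini-Hochberg adjusted p = 0.227), with a 95% interval from -1.01 to -0.20. In the authors' deposited table, which rests on Cuffdiff, Lyz2 had the lowest adjusted p of the 10, at 0.0869. Lyz1, the lysozyme of Paneth cells, is a near-identical neighbour of Lyz2, and how reads shared between them were counted is not stated by the labels. Lyz1 measured 44.9, 39.8 and 36 FPKM in wildtype colon against 28.7, 29.0 and 26.3 FPKM in knockout colon, also without overlap. Because of the shared sequence both values are uncertain as measures of 1 gene.

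C1qa, C1qb and C1qc encode the chains A, B and C of C1q, which assemble into the molecule that starts the classical complement pathway. They lie side by side on chromosome 4, at 136895916 to 136898844 (C1qa), 136880145 to 136886177 (C1qb) and 136889169 to 136893012 (C1qc), within 18.7 kb. The promoters of the neighbours C1qb and C1qc are shown because the 2 genes are read in constant proportion in these libraries (values follow the sequences). The sequences are from RefSeq (GRCm38.p6, the assembly of mm10), 300 bases each on the strand of the gene, with 250 bases before the start of the transcript. Capitals mark GAGGAA, the core of the binding site of the myeloid factor PU.1, or its reverse complement TTCCTC.
C1qb (chr4:136886151-136886450, minus strand): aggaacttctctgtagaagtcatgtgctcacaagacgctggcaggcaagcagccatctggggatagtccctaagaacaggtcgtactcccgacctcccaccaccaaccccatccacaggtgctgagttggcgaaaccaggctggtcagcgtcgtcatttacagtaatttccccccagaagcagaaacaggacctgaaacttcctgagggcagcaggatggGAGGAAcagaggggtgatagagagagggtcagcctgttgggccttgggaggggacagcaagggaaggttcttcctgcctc
C1qc (chr4:136892865-136893164, minus strand): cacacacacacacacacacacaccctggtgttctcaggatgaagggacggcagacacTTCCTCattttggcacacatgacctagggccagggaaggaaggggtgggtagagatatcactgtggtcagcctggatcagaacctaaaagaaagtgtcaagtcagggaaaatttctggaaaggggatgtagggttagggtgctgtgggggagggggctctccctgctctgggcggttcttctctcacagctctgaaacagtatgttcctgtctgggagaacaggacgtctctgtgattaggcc

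The motif stood once in each promoter, 30 bases before the start in C1qb and 193 bases before it in C1qc. Promoters were matched for 7 of the 10 genes, all but Csf1r, Emr1 and C1qa. Of these 7, 5 held the motif on either strand (Cd68, C1qb, C1qc, Mrc1 and Itgam) and 2 did not (Lyz2 and Cd163). The share of all 32851 RefSeq promoters that held it was 28.3%. A match is a description of letters in the window and no evidence that the factor binds there.

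The 3 C1q genes measured 84.4, 72.7 and 86.2 FPKM (C1qa), 69.2, 62.2 and 69.0 FPKM (C1qb) and 78.2, 66.6 and 77.3 FPKM (C1qc) in wildtype libraries 1, 2 and 3. In knockout libraries 1, 2 and 3 they measured 64.3, 70.6 and 48.2 FPKM (C1qa), 53.9, 56.4 and 39.5 FPKM (C1qb) and 61.1, 63.7 and 45.5 FPKM (C1qc). Wildtype library 2 was lowest of its group and knockout library 2 highest of its group for all 3 genes, and between these libraries the gap was narrow, for C1qa 72.7 against 70.6 FPKM. Log2 changes were -0.42 ± 0.15, -0.43 ± 0.14 and -0.39 ± 0.14 for C1qa, C1qb and C1qc (SE; limma, Benjamini-Hochberg adjusted p = 0.274, 0.257 and 0.274).

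Summed over the 3 chains, C1q RNA was 222 ± 17.7 FPKM in wildtype colon against 167.7 ± 30.4 FPKM in knockout colon (SD, n = 3 each). The chains kept their shares of this sum. C1qa made up 36.5% ± 0.505 in wildtype and 36.4% ± 0.608 in knockout libraries, C1qb 30.1% ± 0.642 and 29.8% ± 0.271, and C1qc 33.3% ± 0.352 and 33.9% ± 0.409 (SD, n = 3 each). In each of the 6 libraries the order of level was C1qa, C1qc, C1qb.

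Partners of C1q were read from a list of 12 tested genes. All 12 had lower means, with log2 changes from -0.63 to -0.01 and a median of -0.27. In limma 0 were called and 3 were lower at an unadjusted p under 0.05, against 0.288% and 9.91% of all tested genes. C1ra and C1s, the proteases that C1q activates, measured 20.0 ± 2.82 and 47.4 ± 5.80 FPKM in wildtype colon against 16.6 ± 3.16 and 37.6 ± 7.14 FPKM in knockout colon (SD, n = 3 each), with overlap. Serping1, the inhibitor of both proteases, measured 104 ± 18.5 and 80.7 ± 12.5 FPKM, also with overlap. Calr and C1qbp, the most abundant of the list beside Serping1, had knockout means at 93.6% and 97.2% of the wildtype mean, with overlap.

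The C1q genes and Tnfrsf1b share a chromosome. C1qa ends 8.31 Mb before Tnfrsf1b starts, and 76 tested genes lie between them, with a median log2 change of -0.02 and 0 calls in either direction in limma. The 3 C1q genes had a median log2 change of -0.42, and so did the 7 other genes of the set, which lie on other chromosomes.

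Mrc1, the mannose receptor CD206 (chromosome 2, 14229414 to 14332023), measured 11.6, 9.41 and 10.2 FPKM in wildtype colon against 8.52, 8.43 and 6.59 FPKM in knockout colon. The groups did not overlap, and knockout libraries 1 and 2 lay under wildtype library 2. Its log2 change was -0.37 ± 0.12, with the smallest SE of the 10 (limma, Benjamini-Hochberg adjusted p = 0.249). Mrc2, the related collagen receptor of fibroblasts, measured 4.81 ± 0.863 FPKM in wildtype colon against 3.46 ± 0.552 FPKM in knockout colon (SD, n = 3 each; limma, Benjamini-Hochberg adjusted p = 0.279).

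Cd163, the receptor for complexes of hemoglobin and haptoglobin (chromosome 6, 124304651 to 124330603), was the exception. It measured 5.90, 5.74 and 5.92 FPKM in wildtype, an SD of 0.101 FPKM, and 4.43, 5.93 and 3.01 FPKM in knockout colon, an SD of 1.46 FPKM. Knockout library 2 was the highest of all 6 and knockout library 3 the lowest, so the groups overlapped. The log2 change was -0.36 ± 0.18 (SE; limma, Benjamini-Hochberg adjusted p = 0.374), and its 95% interval, from -0.80 to 0.07, included 0.

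Genes around hemoglobin uptake did not share one direction, with 7 lower and 2 higher means in a list of 9. Hmox1, the inducible heme oxygenase, was the only called gene of this list, against 0.288% of all tested genes. It fell from 10.5, 9.40 and 9.13 FPKM in wildtype to 4.13, 5.20 and 4.98 FPKM in knockout colon, which on the log2 scale is -0.89 ± 0.10 (SE; limma, Benjamini-Hochberg adjusted p = 0.0188). Slc40a1, the iron exporter ferroportin, measured 52.9, 62.3 and 57.8 FPKM in wildtype colon against 78.5, 79.0 and 79.2 FPKM in knockout colon. It was not called (limma, Benjamini-Hochberg adjusted p = 0.13). Fth1 and Ftl1, the most abundant genes of the list, measured 2662 ± 142 and 1165 ± 111 FPKM in wildtype colon (SD, n = 3 each). In knockout colon they measured 2615 ± 136 and 1177 ± 101 FPKM, with overlap.

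The 10 genes kept one order of level in both genotypes. By group mean it ran Lyz2, C1qa, C1qc, C1qb, Csf1r, Cd68, Mrc1, Emr1, Cd163 and Itgam, from 222 to 4.34 FPKM in wildtype colon against from 148 to 3.16 FPKM in knockout colon. C1qa and C1qc, C1qc and C1qb, and Csf1r and Cd68 are neighbours in this order whose ranges overlapped in both genotypes. Mrc1 and Emr1, Emr1 and Cd163, and Cd163 and Itgam overlapped in the knockout libraries only.

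Libraries differed in level for all 10 genes together. Knockout library 3 was the lowest of the 6 libraries for 10 of 10 genes, against 13.8% of all tested genes. As a share of the wildtype mean, the 10 genes had medians of 104%, 94.8% and 103% in wildtype libraries 1, 2 and 3, and of 81.4%, 84.0% and 56.1% in knockout libraries 1, 2 and 3. Within knockout library 3 the genes ran from 49.7% (Lyz2) to 63.5% (Mrc1). Over all tested genes this library stood at a median of 102% of the mean of the other two knockout libraries, whereas Cd163 stood at 58.2%, Csf1r at 65.2% and Mrc1, the highest of the 10, at 77.8%.

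**Figure D2:**
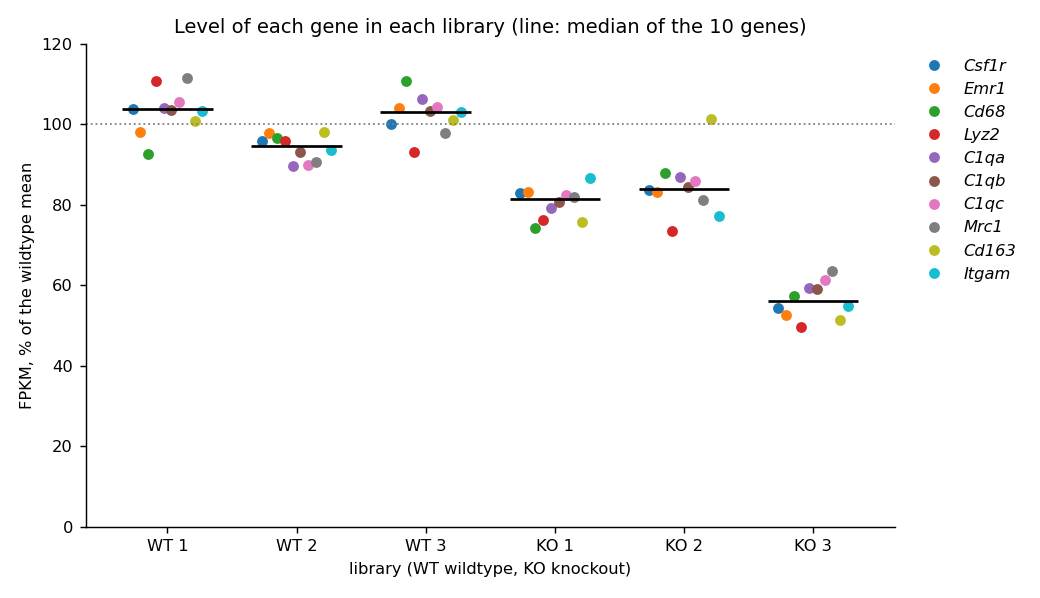
Level of each of the 10 genes in each library as a percentage of its wildtype mean (dotted line at 100%), with the median of the 10 as a black line. Medians of knockout libraries 1 and 2 are 81.4% and 84.0%, and that of knockout library 3 is 56.1%.

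The size of the difference depended on knockout library 3. Without it the 10 log2 changes lay between -0.41 (Lyz2) and -0.16 (Cd163), with a median of -0.26. In that fit 9 of 10 genes had non-overlapping, lower values (17.8% of all tested genes) and 6 had an unadjusted p under 0.05 (6.16% of all). Leaving out a library cannot create an overlap, so the count without overlap could not fall below 9. Without wildtype libraries 1, 2 and 3 in turn, 3, 8 and 2 of the 10 genes had an unadjusted p under 0.05, against 4.69%, 15.1% and 4.79% of all tested genes. In each of these 3 fits 9 genes had no overlap, against 16.6%, 27.2% and 15.2% of all, again a count that could not fall. With the upper quartile of the libraries made equal, 6 of the 10 had no overlap (8.21% of all tested genes) and 3 had an unadjusted p under 0.05 (6.12% of all). The named rows summed to 525855 FPKM in knockout library 2 and to 564465 to 583042 FPKM in the other libraries; the part of this in the counts was not tested.

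**Figure D3:**
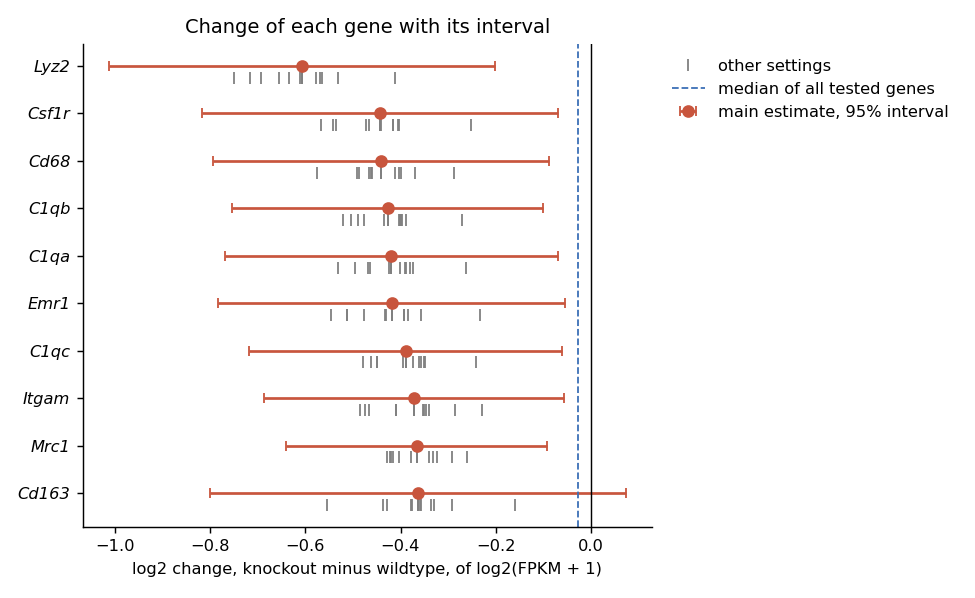
Log2 change of each gene, knockout minus wildtype, on the log2(FPKM + 1) scale with its 95% interval from limma (red), and the estimates of 16 other settings as grey ticks. All estimates lie below 0, the interval of Cd163 alone crosses it, and the grey tick nearest to 0 in each row is the fit without knockout library 3. Ticks for the filter, moderation, small RNA genes and replicate block repeat the main estimate.

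Levels relative to Csf1r, read within each library, varied far less than the levels themselves. Across the 6 libraries the coefficient of variation of the other 9 genes was 18.4% to 25.7%, and of their ratios to Csf1r 3.49% to 10.4%. Ratios to Csf1r were not computed for genes outside the set, so these values do not set the macrophage genes apart. C1qa stood at 3.70, 3.46 and 3.92 times Csf1r in wildtype and 3.53, 3.85 and 4.05 times in knockout libraries. Mrc1 stood at 0.507, 0.447 and 0.462 in wildtype and 0.468, 0.459 and 0.553 in knockout libraries. The groups overlapped for both ratios. Lyz2 stood at 10.8, 10.1 and 9.42 times Csf1r in wildtype and 9.29, 8.91 and 9.26 times in knockout libraries, the 1 ratio of 9 whose groups did not overlap.

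These 3 ratios were tested. Their log2 differences, knockout minus wildtype, were 0.04 (C1qa), 0.06 (Mrc1) and -0.14 (Lyz2), with exact two-sided permutation p-values of 0.6, 0.6 and 0.1 (0.6, 0.6 and 0.3 with Benjamini-Hochberg adjustment over the 3). With 3 libraries against 3 the smallest p this test can give is 0.1. The sign of the C1qa ratio turned without wildtype library 2 and without knockout library 3, and that of the Mrc1 ratio without knockout library 3.

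**Figure D4:**
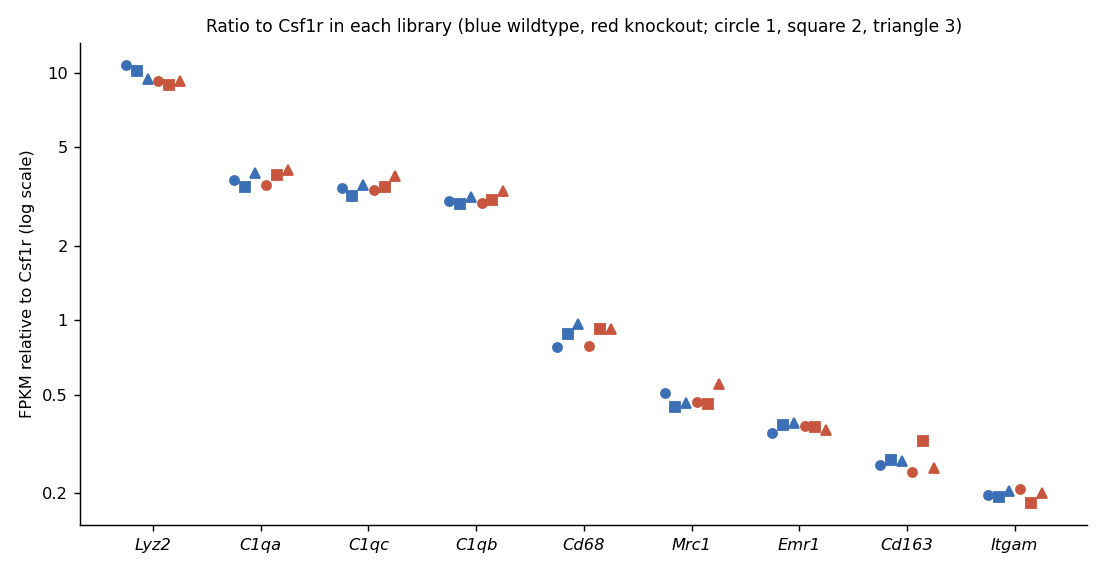
FPKM of 9 genes divided by the FPKM of Csf1r in the same library, on a log axis, wildtype in blue and knockout in red. The 6 points of each gene lie close together, and only for Lyz2 are the 3 knockout ratios (8.91 to 9.29) all below the 3 wildtype ratios (9.42 to 10.8).

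Growth factors, adaptors and transcription factors around CSF1R gave 12 tested genes, of which 10 had lower means (median log2 change -0.19). In limma 0 were called, against 0.288% of all tested genes. At an unadjusted p under 0.05, 2 were lower and 0 higher, against 1443 and 917 of the 14564 tested genes. Csf1, the main ligand of the receptor, named here for that role, measured 10.5, 9.07 and 10 FPKM in wildtype colon against 8.72, 9.40 and 6.28 FPKM in knockout colon, with overlap. Il34, the other ligand, measured 8.14 ± 0.251 and 8.63 ± 1.53 FPKM (SD, n = 3 each). Tyrobp and Fcer1g, adaptor proteins of myeloid receptors, measured 37.8 ± 2.19 and 34.0 ± 0.83 FPKM in wildtype colon against 30.1 ± 7.18 and 27.5 ± 6.52 FPKM in knockout colon. Both were lowest in knockout library 3, at 22.1 and 20.0 FPKM. Csf2rb and Csf2ra, the 2 chains of the receptor for the related factor GM-CSF, lay on opposite sides: Csf2rb measured 2.51 ± 0.0988 and 1.74 ± 0.322 FPKM, and Csf2ra 6.96 ± 0.540 and 7.86 ± 0.193 FPKM, neither with overlap and neither called. Irf8, a transcription factor of monocytes and dendritic cells, measured 22.8 ± 2.46 and 22.2 ± 2.57 FPKM, and Maf, a factor of mature macrophages, 12 ± 2.05 and 9.24 ± 1.51 FPKM.

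Another list of macrophage genes was less uniform. Of its 31 tested rows 24 had lower and 7 higher means, with a median log2 change of -0.31. In limma 0 were called, against 0.288% of all tested genes. At an unadjusted p under 0.05, 14 were lower and 3 higher, against 1443 and 917 of the 14564 tested genes. The lowest changes were those of Cd36, a scavenger receptor also used by fat and endothelial cells, at 17.9 ± 2.92 FPKM in wildtype colon against 10.8 ± 1.78 FPKM in knockout colon, and of Fcgr3, an IgG receptor, at 14.3 ± 1.27 and 10.1 ± 1.6 FPKM (SD, n = 3 each). Folr2, a folate receptor that fills 2 rows, measured 16.6, 14.1 and 17.3 FPKM in wildtype colon against 12.5, 13.3 and 8.81 FPKM in knockout colon in the row with the larger values. In its other row it measured 2.67 ± 0.831 and 2.88 ± 1.03 FPKM (SD, n = 3 each), a log2 change of 0.07.

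Other genes of that list went the opposite way. Mertk, a receptor for dying cells, measured 9.61, 11.6 and 11.2 FPKM in wildtype colon against 14, 14.6 and 13.5 FPKM in knockout colon. Its values did not overlap, and its log2 change, 0.35 ± 0.08, was not called (SE; limma, Benjamini-Hochberg adjusted p = 0.191). Hpgds, a prostaglandin D synthase, measured 4.59 ± 0.735 and 6.12 ± 0.884 FPKM, and Sepp1, a selenium carrier, 385 ± 23.4 and 453 ± 13.8 FPKM (SD, n = 3 each), both higher in each knockout than in any wildtype library. Ctss and Gas6, the other most abundant genes of the list, measured 280 ± 33.1 and 175 ± 0.862 FPKM in wildtype colon against 285 ± 21.3 and 183 ± 12.6 FPKM in knockout colon, with overlap.

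Genes by which monocytes enter tissue gave 12 tested rows, 10 with lower means and a median log2 change of -0.30. In limma 0 were called and 7 were lower at an unadjusted p under 0.05, against 0.288% and 9.91% of all tested genes. Ccl2, the chemokine that draws monocytes, had the lowest log2 change of this list and was picked out for it afterwards. It measured 4, 3.53 and 4.64 FPKM in wildtype colon against 1.30, 1.99 and 1.73 FPKM in knockout colon, a wide gap between groups, at -0.92 ± 0.13 on the log2 scale (SE; limma, Benjamini-Hochberg adjusted p = 0.0584). Its receptor Ccr2 measured 3.33, 2.69 and 2.88 FPKM in wildtype colon against 2.64, 2.93 and 1.95 FPKM in knockout colon, with overlap. The most abundant genes of the list went both ways. Ly6c1 measured 80.5 ± 4.97 FPKM in wildtype colon against 65.0 ± 8.12 FPKM in knockout colon (SD, n = 3 each). Cx3cl1 measured 38.6 ± 4.34 and 41.9 ± 2.93 FPKM, with overlap. Ly6c2 had log2 changes of 0.17 in its row with the larger values and -0.11 in its other row.

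Lists of other cell types were read in the same way. Among leukocyte, fibroblast, endothelial, adipocyte, epithelial and smooth muscle genes 0 were called in limma, and 8, 6, 4, 5, 0 and 0 were lower at an unadjusted p under 0.05. Of all tested genes 0.288% were called and 9.91% were lower at that unadjusted p. All 12 leukocyte genes shared by all lineages had lower means (median log2 change -0.42) and a summed level of 122 to 138 FPKM in wildtype colon against 68.5 to 112 FPKM in knockout colon, lowest in knockout library 3. All 6 fibroblast genes (median -0.44), all 6 tested endothelial genes (-0.39) and all 7 tested adipocyte genes (-0.89) also had lower means. Their sums were 1126 to 1546, 58.9 to 75.2 and 157 to 261 FPKM in wildtype against 891 to 1158, 39.3 to 55.2 and 83.5 to 122 FPKM in knockout colon. The fibroblast and endothelial sums were also lowest in knockout library 3, at 65.4% and 56.6% of the wildtype mean. The adipocyte sum was lowest in knockout library 1, at 40.1%. Epithelial genes (median 0.06) and smooth muscle genes (-0.20) stood nearer to 0. The part of these cell types in the macrophage values was not tested.

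Genes of cells that share Lyz2 or Itgam with macrophages were also read. Neutrophil genes summed to 11.4 to 23.8 FPKM in wildtype colon against 3.83 to 23.7 FPKM in knockout colon over 11 rows, with Elane and Ngp listed at 0 in all 6 and 5 rows high enough to be tested. The highest means among them were those of S100a8, S100a9 and Ltf, which made up most of the sum. In knockout libraries 1 and 2 the neutrophil sum stood at 22.6% and 139% of its wildtype mean, and that of the skin list at 22.3% and 63.8%. The part of skin tissue in the neutrophil sum was not tested. Dendritic cell genes gave 7 tested rows, 6 with lower means, and a median log2 change of -0.19. The sum over their whole list was lowest in knockout library 3, at 65.3% of the wildtype mean. Cd207, the defining gene of Langerhans cells of the skin, stayed between 0.144 and 0.332 FPKM.

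**Figure D5:**
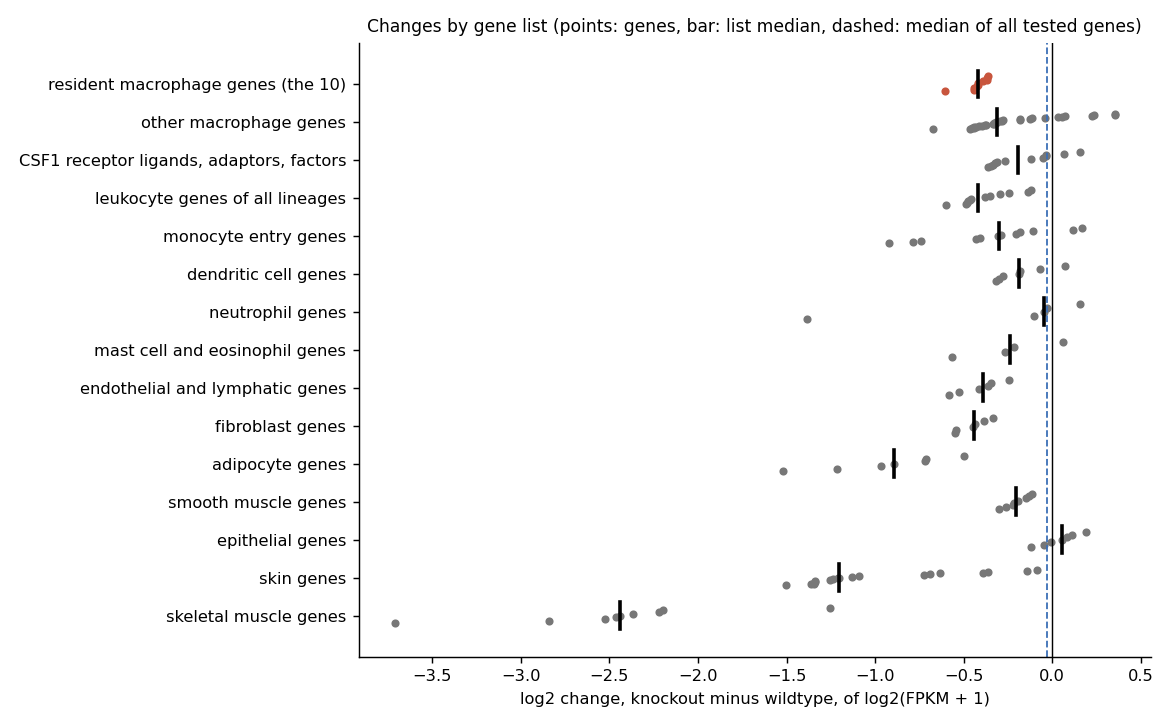
Log2 changes of the tested genes of 15 lists (points), with list medians as black bars and the median of all tested genes as a dashed line. The 10 macrophage genes (red) cluster around -0.42, as do leukocyte, fibroblast and endothelial genes, and epithelial genes lie around 0.06.

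Outside the set, the named genes whose levels most closely followed the mean profile of the 10 were Dab2, Grk5, Sirpa, Lamb1, Sh2d3c, Slc11a1, Mmp2 and Ahr. Likeness was Pearson's r of log2(FPKM + 1) over the 6 libraries, computed for the 10734 genes that averaged 2 FPKM or more, and it ran from 0.991 to 0.998 for these 8. Of the 10734 genes, 103 had an r of at least 0.95. The libraries fall into 2 genotypes and share their depth and tissue content, so r is given as a ranking only. Dab2, an endocytic adaptor and the first of the 8, measured 13.5, 11.9 and 13 FPKM in wildtype colon against 10.6, 11 and 7.29 FPKM in knockout colon. Sirpa, the receptor for CD47 on myeloid cells, measured 11.2, 10.3 and 11.4 FPKM in wildtype colon against 9.37, 9.53 and 7.09 FPKM in knockout colon. Slc11a1, a metal transporter of phagocyte vacuoles, measured 2.96 ± 0.170 and 2.24 ± 0.425 FPKM (SD, n = 3 each). Lamb1, a laminin chain, and Mmp2, a matrix protease of stromal cells, were among the 8 as well, at 26.3 ± 1.38 and 58.5 ± 2.68 FPKM in wildtype colon against 21.6 ± 3.02 and 50.4 ± 4.67 FPKM in knockout colon.

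In the authors' deposited table all 10 genes had a lower group value in the knockout, 5 had a p-value under 0.05 and 0 had an adjusted p-value under 0.05. Over all genes tested here, the authors' deposited table gave a lower group value for 56.3%, a lower value with a p-value under 0.05 for 4.52%, and one with an adjusted p-value under 0.05 for 1.46%. Its log2 fold changes ranged from -0.59 for Lyz2 to -0.39 for C1qc and Cd163.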

How the data were processed

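The deposited table gives FPKM per gene for each of 6 libraries, per the file headers. The authors, per the series' design text, mapped reads with Tophat2 and Bowtie2, assembled them with Cufflinks and tested with Cuffdiff 2, whose group FPKM, log2 fold change, p-value and adjusted p-value are in the same deposited table. The build is mm10, per the submitters' processing notes. For annotation, strand and library scaling: not given in the sources used here. Starts in the file count from 0 and were raised by 1, which met the RefSeq start for 5 of the 10 genes.

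FPKM are not counts, so no count model or counting interval was used, and total depth per library is unknown. Rows without a gene name (6.13%) were left out. Genes averaging 0.5 FPKM or more were tested as log2(FPKM + 1), which understates changes of low genes, in limma 3.58.1 (R 4.3.3) with trend and robust moderation, no covariates, all 6 libraries, and Benjamini-Hochberg adjustment over all genes at 0.05. Fits were tested on simulated data. Python 3.11.15, pandas 2.3.3, scipy 1.17.1 and matplotlib 3.10.9 did the rest.

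The 10 genes and the 23 lists were chosen with earlier results of these data known. The naming rule took the 10 genes, Tnfrsf1b, called and most abundant list genes, the extremes of both further macrophage lists, and the 8 genes most alike. Not all of its picks are printed here. Icam1, Fcgrt, Cd97, Gpr56, Gpr116, Cd52 and Laptm5 are among those left out. Ccl2 was named for its change, and Csf1, Ccr2, C1ra, C1s, Ctsb, Ctsd, Lamp2, Cd207, Lyz1, Itgax, Itgad, Emr4 and Mrc2 for their role, after their values were seen. Replicate numbers were not used as pairs in the main fit (see the closing section). Alternatives covered the pseudocount, filter, scaling, moderation, small RNA genes, a replicate block, a skin covariate and each library left out.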

Additional observations from a re-analysis of the deposited data

How the results depend on the processing

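All 10 genes had a negative log2 change in each of 170 values, which ranged from -0.75 to -0.16. These came from 16 refitted settings and 1 comparison without test that kept wildtype library 2 and knockout libraries 2 and 3. The settings of filter, moderation, small RNA genes and replicate block only repeat the main log2 change. For the 9 genes without overlap, leaving libraries out could not turn the sign. None of the 10 was called in limma under any of the 16, with Benjamini-Hochberg adjusted p-values from 0.13 to 0.68. Of the 10, 9 had an unadjusted p under 0.05 (9.91% of all tested genes). That number was 4 with quantile normalization (5.56% of all), 3 with the upper quartile made equal (6.12%), 2 with equal sums without skin, hair and skeletal muscle lists (6.13%), and between 2 and 10 with single libraries left out (4.69% to 15.1%). Without overlap were 9 of the 10 (12.5% of all), 6 with the upper quartile made equal (8.21%) and 6 with equal sums (8.47%). With single libraries left out 9 to 10 had no overlap (15.2% to 27.2%). Leaving out a library cannot create an overlap, so that count could not fall below 9.

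Over all genes, 15 were called lower and 27 higher. Lower calls were 9 with the skin list as covariate and 8 to 40 with single libraries left out, 40 without wildtype library 2. Higher calls were 16 with a pseudocount of 0.1, 11 without small RNA genes, 14 with the replicate block, 17 with the skin list as covariate and 13 to 34 with single libraries left out. The causes were not tested.

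The replicate block gave 10 lower calls, 0 of the 10 genes, of which 7 had an unadjusted p under 0.05 (4.99% of all). Across genes, correlations of the deviations of same-numbered libraries from their group means were -0.375, -0.337 and 0.209 for numbers 1, 2 and 3. Thus 1 of these 3 pairs was above 0. Wildtype library 2 and knockout library 1, with different numbers, reached 0.467. With 3 libraries per group such correlations cannot exclude that same-numbered libraries were handled together. The log2 difference of the ratio to Csf1r ranged with single libraries left out from -0.0033 to 0.10 for C1qa (-0.0033 without wildtype library 2, -0.0013 without knockout library 3), from -0.024 to 0.11 for Mrc1 (-0.024 without knockout library 3) and from -0.19 to -0.09 for Lyz2.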
